A study of Mus musculus with 4 samples.

Results

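Chemokines are small secreted proteins that guide the migration of cells through G protein-coupled receptors, and interleukins are secreted cytokines that act mostly through receptors coupled to JAK kinases and STAT factors or, for the interleukin-1 and interleukin-17 families, through adaptors that activate NF-kB. Many of these genes arose by local duplication and lie side by side in clusters. In brain tumors they are best known as signals between tumor cells, microglia, infiltrating leukocytes and vessels. Described here are the 131 autosomal protein-coding mouse genes, of 20665, whose symbols begin with Ccl, Cxcl, Ccr, Cxcr or Il followed by a number. Sorted by symbol, 25 are CC and 12 CXC chemokines, and 11 are CC and 5 CXC chemokine receptors. Another 38 are interleukins, 36 are interleukin receptor chains and 2, Il1rn and Il18bp, are soluble antagonists. Other genes, such as Il1f5 among the interleukins and Il22ra2 among the receptor chains, were not sorted by function. The remaining 2, Il4i1 and Il4i1b, carry the symbol of an interleukin-induced amino acid oxidase and are neither ligand nor receptor. A further 6 genes of these names lie on chromosome X, where no interaction was listed, among them the common gamma chain Il2rg and the chemokine receptor Cxcr3.

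The data were 1 list of 99041 chromatin interactions from HiChIP with an antibody to H3K27ac, a histone acetylation found at regulatory DNA in use. The labels' extract protocol names HiChIP for all 4 libraries, whereas their titles read ChIP-seq, and the assay is taken here from the protocol and from the form of the list. HiChIP ligates DNA fragments that touch in the nucleus and enriches those on the marked chromatin. YM in the name of that list was read here as YAP-M tumor, a mouse brain tumor with the YAP-M fusion genotype, for which 2 libraries are labelled. The other 2 libraries are of mNSC, wild-type mouse neural stem or progenitor cells, for which no list was used here. The labels name the antibody as the treatment of every library and give the same stem cell culture medium for all of them, tumors included. They state neither an age, nor how the tumors arose, nor whether replicates came from separate animals or cultures. Each interaction joins a pair of 10 kb bins (anchors) on an autosome, 20 to 1000 kb apart, in mm10 coordinates. The list holds no counts or scores, so depth is unknown, and with 1 list no value has a replicate error and no test was possible. A gene's interactions are those with an anchor bin that overlaps 2.5 kb to either side of its lowest or highest coordinate. A contact made in a few cells of the tissue and one made in most of them cannot be told apart.

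At least 1 interaction was listed at 95 of the 131 genes (72.5%, exact 95% interval 64.04 to 79.95%), against 65.7% of all autosomal coding genes. The interval covers counting error only. The median was 3 interactions per gene (interquartile range 0 to 8), against 2 (0 to 7) for all coding genes. At least 10 interactions were listed at 28 genes (21.4%, against 17.1% of coding genes), and at least 20 at 5 genes (3.82%, against 4.51%). The bar plot of interactions per gene shows the distributions side by side.

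**Figure D1:**
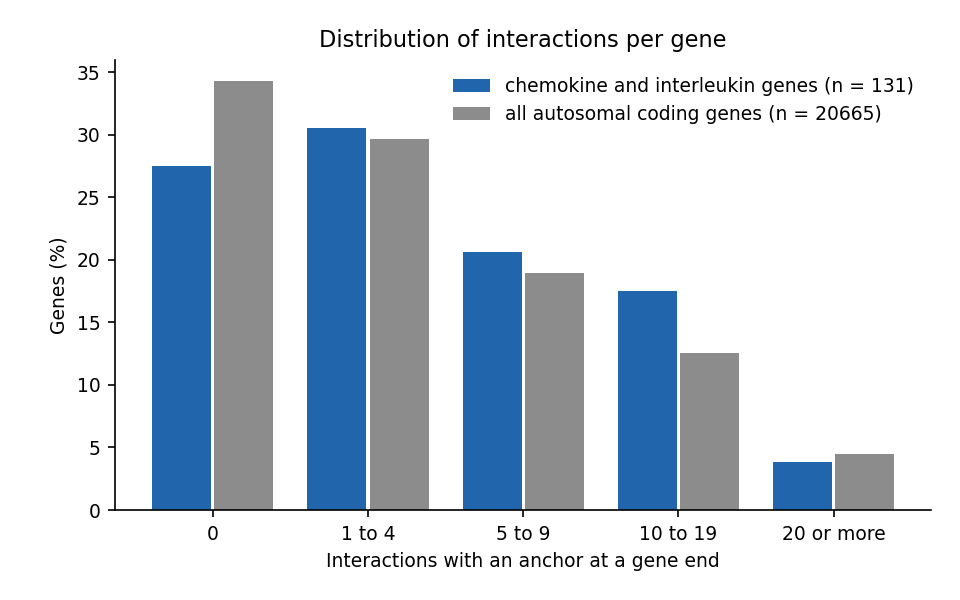
Percentage of genes (y axis) by number of interactions with an anchor at a gene end (x axis), for the 131 chemokine and interleukin genes (blue) and all 20665 autosomal coding genes (grey). The blue bar is lower at 0 interactions (27.5% against 34.3%) and higher at 10 to 19 (17.6% against 12.6%).

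A 10 kb bin can hold the ends of several genes, and 72 of the 131 genes (55.0%) shared an end bin with another coding gene, against 61.2% of all coding genes. Of the 72, 28 shared with another chemokine or interleukin gene and 51 with a coding gene outside the family, 7 with both. The counts of these genes cannot be given to 1 gene. Among the 59 genes alone in their end bins, 39 had an interaction (66.1%, median 3), against 50.5% and a median of 1 for the 8026 coding genes alone in theirs. All 5 genes with 20 or more interactions, Cxcr4, Il20rb, Cxcl1, Il6st and Ccl1, were alone in their bins (8.47% of the 59). Together they held 120 of the 603 distinct interactions of the family (19.9%). Among all coding genes, 20 or more were listed at 4.86% of those alone in their bins and 4.28% of those sharing one.

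The classes are described by counts and medians, with no test between them. Over all coding genes the share with an interaction was 65.7% and the median was 2. Every CXC chemokine (12 of 12, median 8.5) and every CC chemokine receptor (11 of 11, median 8) had an interaction. Only 6 of these CXC chemokines and 4 of these CC receptors were alone in their end bins. Neighbours in a cluster are not separate cases. CC chemokines had an interaction at 14 of 25 (median 2) and CXC chemokine receptors at 4 of 5 (median 7). Interleukins had one at 22 of 38 (median 1.5) and interleukin receptor chains at 29 of 36 (median 3.5). Among CC chemokines without one, Ccl19, Ccl21a, Ccl21b, Ccl21d and Ccl27b lie in a stretch of chromosome 4 that holds no anchor. Ccl21c lies below the first anchor of that chromosome. Of the soluble antagonists, Il1rn, which blocks the interleukin-1 receptor, had 6 interactions, and Il18bp, which binds interleukin-18, had none listed. Counted as merged contacts, in which adjacent interactions count once, the class medians lay closer together, at 2 for CXC chemokines, CC receptors and interleukin receptors, 3 for CXC receptors and 1 for CC chemokines and interleukins. Receptors of all kinds had an interaction at 44 of 52 and a median of 5.5, ligands at 48 of 75 and a median of 2. The ligands without one include the chromosome 4 genes named above, and the receptors without one include Il11ra2 in the same stretch.

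**Figure D2:**
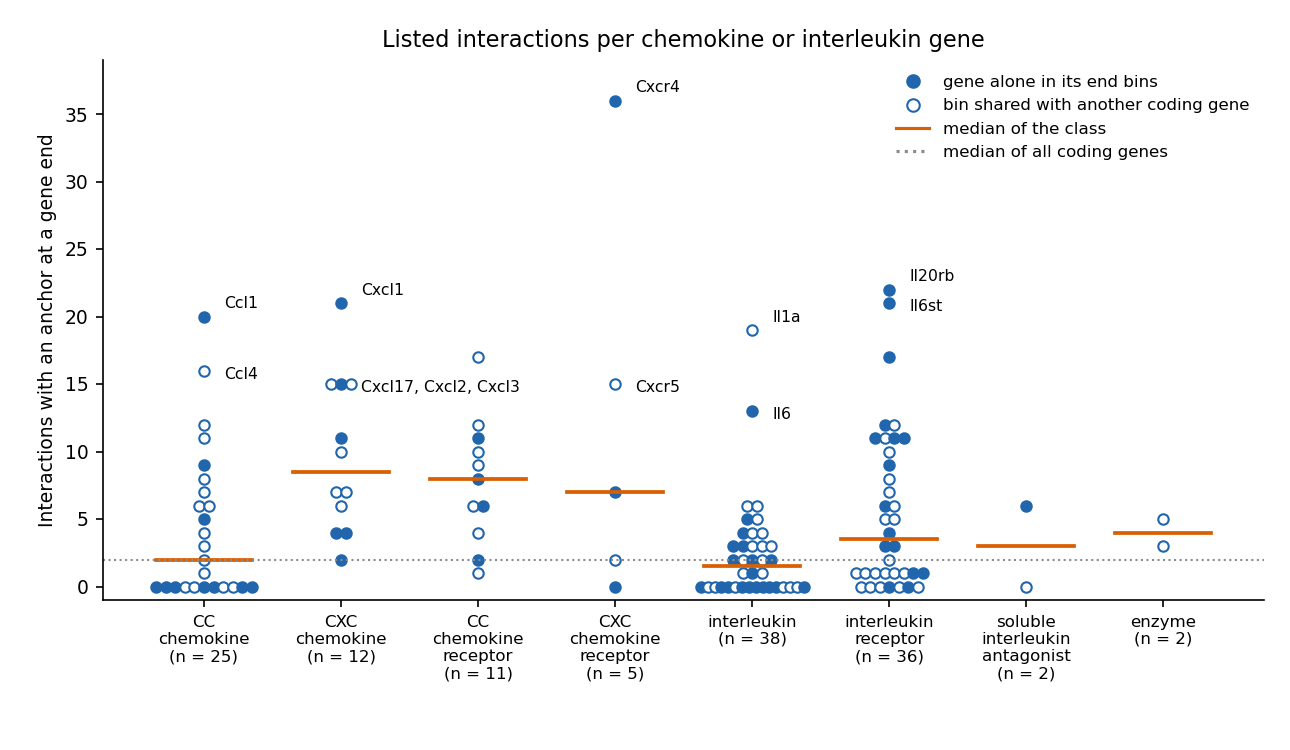
Interactions with an anchor at a gene end (y axis) for each of the 131 genes by role class (x axis); filled points are genes alone in their end bins, open points share a bin with another coding gene, orange lines are class medians and the dotted line is the median of all coding genes, 2. Cxcr4 stands highest with 36, and the CXC chemokine median of 8.5 and the interleukin median of 1.5 lie on either side of the dotted line.

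The promoters of 4 genes with many interactions at their annotated start are shown to give the sequence at the anchor. They are not the highest 4: Ccl1, Cxcl2 and Il1a, with 20, 15 and 14 there, exceed Il6st with 13 and Il6 with 12. The motifs of these 4 therefore do not stand for the most connected genes. The sequences are RefSeq windows of GRCm38.p6, the assembly of mm10, from 250 bases before to 50 after the start, 5′ to 3′ on the strand of the gene. Capitals mark matches to the AP-1 motif TGANTCA or the NF-kB motif. The Cxcr4 window is chr1:128592250-128592549 on the minus strand, and the others lie on the plus strand, at chr13:112463820-112464119 for Il6st, chr5:90890995-90891294 for Cxcl1 and chr5:30012864-30013163 for Il6.
Cxcr4: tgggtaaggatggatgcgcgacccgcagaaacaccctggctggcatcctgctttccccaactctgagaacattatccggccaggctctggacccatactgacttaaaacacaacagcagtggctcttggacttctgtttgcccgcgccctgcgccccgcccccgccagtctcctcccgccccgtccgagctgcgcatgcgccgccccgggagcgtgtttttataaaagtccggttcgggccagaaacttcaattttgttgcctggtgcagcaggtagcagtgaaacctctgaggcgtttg
Il6st: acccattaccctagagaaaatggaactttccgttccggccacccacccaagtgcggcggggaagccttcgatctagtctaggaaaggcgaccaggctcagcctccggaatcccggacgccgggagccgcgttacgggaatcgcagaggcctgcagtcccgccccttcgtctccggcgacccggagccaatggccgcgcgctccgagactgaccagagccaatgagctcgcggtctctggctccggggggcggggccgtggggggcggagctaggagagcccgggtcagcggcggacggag
Cxcl1: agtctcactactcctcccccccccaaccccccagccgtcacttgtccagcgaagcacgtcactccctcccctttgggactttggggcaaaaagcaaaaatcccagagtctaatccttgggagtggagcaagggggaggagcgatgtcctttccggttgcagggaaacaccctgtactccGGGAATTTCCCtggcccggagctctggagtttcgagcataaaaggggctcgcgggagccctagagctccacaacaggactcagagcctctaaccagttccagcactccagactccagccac
Il6: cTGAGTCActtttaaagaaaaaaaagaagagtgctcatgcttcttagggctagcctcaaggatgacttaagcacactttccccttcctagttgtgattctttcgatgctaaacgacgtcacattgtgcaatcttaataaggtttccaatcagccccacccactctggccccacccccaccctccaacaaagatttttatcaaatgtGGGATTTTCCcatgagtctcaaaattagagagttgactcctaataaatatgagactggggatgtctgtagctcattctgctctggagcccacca
Cxcl1 held overlapping matches to the NF-kB motif on both strands, the first starting at base -71 from the start, and Il6 held an NF-kB match at -44 and an AP-1 match, which reads the same on both strands, at -249. Of the 20085 RefSeq promoter windows of autosomal coding genes, 4.93% held the NF-kB motif and 7.06% the AP-1 motif. The Cxcr4 and Il6st windows held no match to these, nor did any of the 4 to the TEAD motif GGAATG (13.4% of windows), the STAT motif TTCNNNGAA (7.78%) or the palindromic NFI motif (0.0349%). All motifs were searched on both strands, and a match is not evidence of binding. RefSeq windows were at hand for 99 of the 131 genes (75.6%), and no share of motifs over the family is given.

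Cxcr4, the receptor of Cxcl12 and a regulator of progenitor migration, was the most connected gene of the family, with 36 interactions. The bin at its start, chr1:128590001-128600000, had 26 of them and the bin below it had 10. Its 27 partner bins lay on both sides, 10 at lower and 17 at higher coordinates, and reached 250 kb. The 17 higher bins all lay between coding genes. On the lower side, partner bins covered Dars, a tRNA synthetase gene, and an end of Mcm6, a subunit of the replicative helicase. After merging of interactions whose anchors were adjacent on both sides, 6 separate contacts remained at Cxcr4. Its ligand gene Cxcl12 had 2 interactions, 1 of which reached 650 kb, and the other CXC receptor genes had 15 (Cxcr5, which guides B cells to follicles), 7 (Cxcr1), 2 (Cxcr2, the neutrophil receptor) and 0 (Cxcr6). Of the 15 at Cxcr5, 9 and 3 fell in bins shared with Bcl9l.

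**Figure D3:**
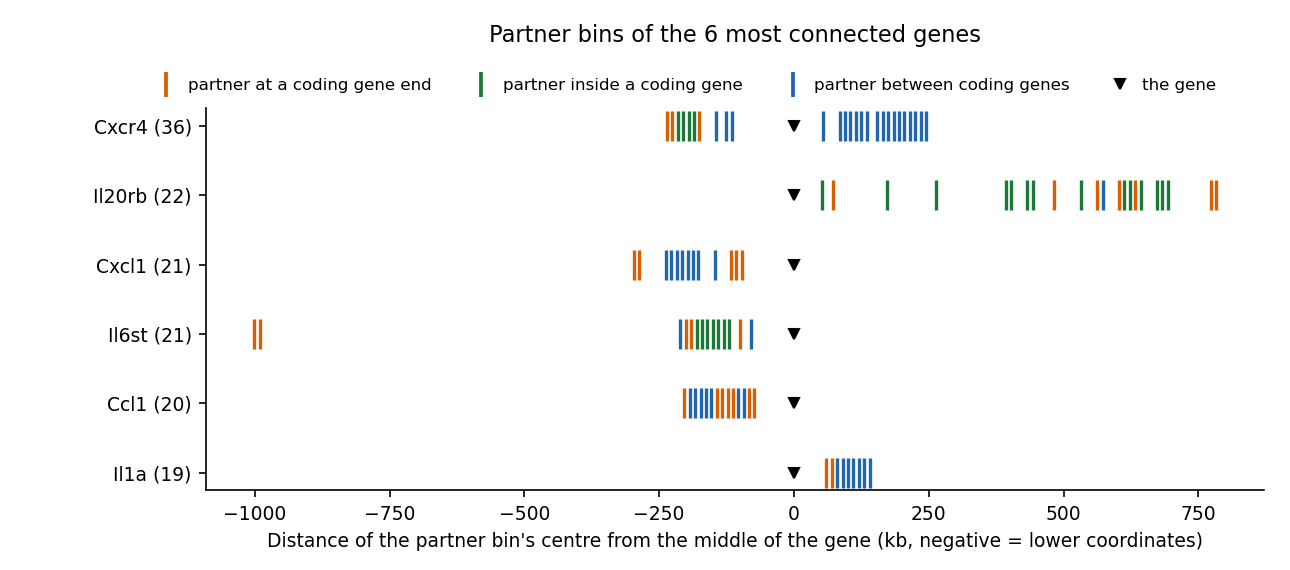
Partner bins (ticks) of the 6 genes with the most interactions, by distance of the bin's centre from the middle of the gene in kb (x axis); numbers in brackets are interactions, and colours show whether the partner bin lies at a coding gene end, inside a coding gene or between coding genes. Partners of Cxcr4 lie on both sides within 250 kb, those of Cxcl1, Il6st, Ccl1 and Il1a on 1 side, and those of Il20rb extend to 800 kb on the higher side.

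The neutrophil-attracting CXC chemokine genes lie within 147 kb on chromosome 5. In this cluster Cxcl1 had 21 interactions, Cxcl2 had 15, Cxcl3 had 15, Cxcl5 had 7 and Cxcl15 had 6. Cxcl1 and Cxcl2 were alone in their bins, whereas Cxcl3 shared a bin with Cxcl15, and Cxcl5 shared with the platelet chemokine genes Pf4 and Ppbp. All 13 partner bins of Cxcl1 and all 15 of Cxcl2 lay at lower coordinates, reaching 300 and 310 kb. An end bin of Cxcl1 adjoins that of Cxcl2, and all 13 partner bins of Cxcl1 were also partner bins of Cxcl2. These included the ends of Cxcl3, Cxcl15, Pf4, Ppbp, Rassf6 and Albfm1. The cluster had 52 distinct interactions, which merged into 6 contacts, and 6 interactions joined the ends of its members. The span from 90650001 to 90690000 held 4 partner bins common to Cxcl1, Cxcl2, Cxcl3 and Cxcl5, and no end of a coding gene lay in it.

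Other CXC chemokine genes were less evenly placed. Cxcl9 and Cxcl10, neighbouring interferon-induced T cell attractants, had 10 and 4 interactions, 2 of which joined them to each other. The bins of Cxcl9 also held ends of Art3 and Sdad1. Cxcl14, expressed in epithelia and brain, had 11, all with partners at higher coordinates within 140 kb. Cxcl17 had 15 in 8 merged contacts, in bins of which 2 also held an end of Lipe. Its partner bins held ends of 13 other genes, among them Tgfb1. Cxcl16 had 7 in bins shared with Med11 and Zmynd15, and Cxcl13 had 4.

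CC chemokine genes with interactions lay mostly in a pair of clusters on chromosome 11. In the first, which holds the monocyte and eosinophil attractants, Ccl1 had 20 interactions, Ccl12 had 9, Ccl7 had 7, Ccl2 had 5, Ccl11 had 4 and Ccl8 had none. The 20 interactions of Ccl1 led to 14 consecutive bins at lower coordinates, from 81970001 to 82110000, which held ends of Ccl2, Ccl7, Ccl11, Ccl12 and the ion channel gene Asic2. They merged into 1 contact, being a block of adjacent bins. In the second cluster Ccl4 had 16, Ccl3 had 12, Ccl9 had 11, Ccl6 had 6 and Ccl5 had 3. Ccl3, a ligand of Ccr1, and its neighbour Ccl4 share 2 end bins that carried 7 and 5 interactions. The genes of this second cluster had 32 distinct interactions and none joined 1 of them to another in a different bin. The 4 bins from 83710001 to 83750000 were partners of Ccl3, Ccl4 and Ccl9 alike, and held ends of the protease inhibitor-like genes Wfdc18 and Wfdc21.

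Outside these clusters, Ccl25, which draws T cells to the gut, had 8 in 8 separate contacts, in a bin shared with Elavl1, and Ccl17 had 6, including contacts with a bin at an end of Cx3cl1. Ccl24 and Ccl26 had 2 and 1. The lymphoid-organ chemokines Ccl19, Ccl21a, Ccl21b, Ccl21c and Ccl21d, together with Ccl20, Ccl22, Ccl27a, Ccl27b and Ccl28, had none at their ends. The Ccl21 and Ccl27 genes include near-identical copies, so their counts are uncertain, and the part of reads that map to several places was not tested. No anchor of the list lay from Ccl21d to Ccl21a on chromosome 4, where Ccl21b, Ccl27b, Il11ra2, Ccl19 and 10 other coding genes also lie. The nearest anchors on either side end at 41760000 and start at 42860001, 1100 kb apart. The gene table places Ccl21c at bases 59769 to 60899 of chromosome 4, below the first anchor of the list there at 3060001, so that gene could not be scored. Without it the share with an interaction was 73.1% of 130.

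Several CC receptor genes lie side by side on chromosome 9. There Ccr2, a receptor of inflammatory monocytes, had 12 interactions, Ccr1l1 had 9, Ccr3, the eosinophil receptor, had 8, Ccr1 had 6 and Ccr9 had 4. Ccr1 and Ccr1l1 share a bin, and 7 of the 12 at Ccr2 fell in a bin with an end of another coding gene. All 8 partner bins of Ccr2 lay at lower coordinates, within 190 kb, and all 6 of Ccr3 lay at higher coordinates, within 250 kb. The ends of Ccr2 were joined to those of Ccr3 by 3 interactions, to those of Ccr1l1 by 3 and to those of Ccr1 by 2. Elsewhere, Ccr6 had 11 in 8 contacts, Ccr10 had 10 in a bin shared with Cntnap1 and Plekhh3, and Ccr7, the receptor for Ccl19 and the Ccl21 proteins, had 6, including contacts with the ends of Top2a and Igfbp4. Ccr8 had 2 and Ccr4 had 1.

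**Figure D4:**
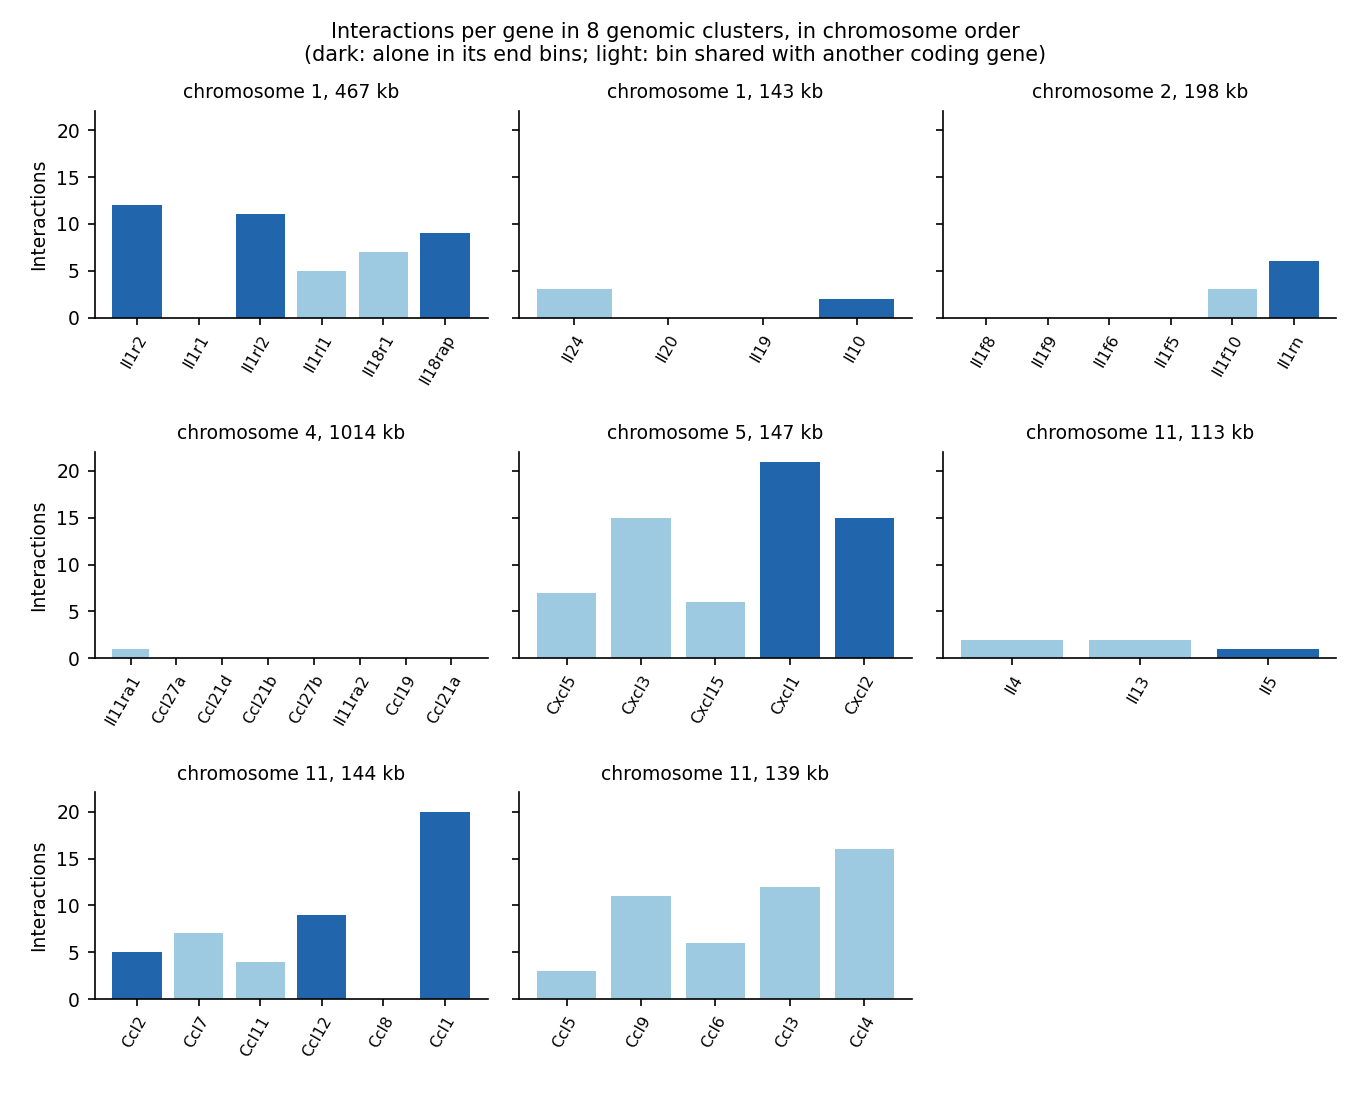
Interactions per gene (y axis) in 8 of the 9 genomic clusters of at least 3 members, genes in chromosome order (x axis); dark bars are genes alone in their end bins and light bars share a bin with another coding gene. Cxcl1 with 21 and Ccl1 with 20 are the highest bars, and in the chromosome 4 cluster Il11ra1 alone has an interaction, 1.

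Interleukin genes had the lowest median of the ligand classes, and 16 of 38 had no interaction at an end. Il1a had 19, and Il6, which signals through Il6ra and Il6st, had 13. The 19 of Il1a led to 9 consecutive bins on the higher side that begin at Il1b, its paralogue, and 3 interactions joined ends of Il1a and Il1b directly. They merged into 1 contact, and the bin with 5 of the 19 also held an end of Ckap2l. Il1b itself had 5. For Il6, 12 of the 13 were at the bin with its start, chr5:30010001-30020000. All 12 partner bins of Il6 lay at lower coordinates, 10 of them between Il6 and Dnajb6 with no end of a coding gene and the others at or inside Dnajb6, in 4 merged contacts. Il11, of the same cytokine family, had 6 in a bin shared with Tmem190 and Tmem238, and Il18 had 6, with bins shared with Bco2 and Tex12. Il27 had 5, in bins shared with Apobr and Cln3. Il34, the second ligand of the microglial receptor Csf1r, had 4, in bins shared with Mtss2 or Sf3b3. Il12a had 4, and Il16 had 4 in a bin shared with Stard5. Il15 had 3 and Il10 had 2.

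Among T helper and lymphoid growth cytokines, Il4 and Il13 had 2 each at a bin they share, Il5 had 1, and no interaction joined them to each other. Il2 had 1, Il9 had 1, Il3 had 2 and Il7 had 2. None was listed at an end of Il17a, Il17c, Il17d, Il17f, Il19, Il20, Il21, Il22, Il23a, Il25, Il31 or Il33, nor at Il1f5, Il1f6, Il1f8 and Il1f9 of the skin-expressed interleukin-36 group. The alarmin gene Il33 had 4 over its whole span, and Il17d had 2. At annotated starts Il33 also had 4, and Il17d had 0.

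Among interleukin receptor genes, the shared signalling chain Il6st (gp130) had 21 interactions, Il20rb had 22, Il4ra had 17, and Il6ra and Il1r2 had 12 each. At Il6st, 13 were at the bin of its start, chr13:112460001-112470000, and 8 at its other end. All 14 partner bins lay at lower coordinates. Of these, 10 were at the ends of or inside Ankrd55, the neighbouring gene, and 2 at the end of Gpbp1 up to 980 kb away. Il31ra, the neighbour of Il6st and a receptor chain of the same family, had 11 interactions, none of them at its annotated start. An end bin of Il31ra adjoins an end bin of Il6st, and 7 of the 10 partner bins of Il31ra were also partner bins of Il6st.

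Il20rb, a chain of the receptors for interleukins 19, 20 and 24, differed from Cxcr4 and Il6st in position and reach. All 22 interactions were at the bin chr9:100450001-100460000, which holds the end away from its annotated start, and the bin of the start had 0. The end bins of Il20rb also held an end of 1 non-coding gene. Its partner bins all lay at higher coordinates, at a median distance of 585 kb and up to 800 kb, and 21 of the 22 were at the ends of or inside Nck1, Stag1, Pccb, Msl2 or Ppp2r3a. It had 12 merged contacts, the highest number in the family, followed by 8 each at Il1rl2, Ccr6, Cxcl17 and Ccl25. By contrast, the partner bins of Il4ra, the receptor chain for interleukins 4 and 13, were within 140 kb, 6 of 8 at coding gene ends, mainly those of Nsmce1 and Kdm8, and 1 interaction joined Il4ra to a bin with ends of Il21r and Gtf3c1.

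For Il6ra, 11 of the interactions were at a bin that holds its end and also an end of She, and 2 at the bin of its annotated start, 1 joining these bins. Il3ra had 11, with a median distance of 360 kb, and Il27ra had 11 in bins shared with Palm3 and Rln3. Il21r had 10 and Il10ra had 8, both with a bin shared with another coding gene.

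The interleukin-1 receptor cluster on chromosome 1 kept most of its contacts inside itself. It had 34 distinct interactions, in 18 merged contacts, of which 25 lay within its 467 kb and 6 joined ends of its members. Il1r2, the decoy receptor, had 12, Il1rl2 had 11, Il18rap had 9, Il18r1 had 7 and Il1rl1, the receptor for interleukin-33, had 5. Il18r1 and Il1rl1 share a bin that carried 4 interactions, which are counted for both. Il1r1, the signalling receptor for interleukin-1, had 0 at its ends but 17 over its whole span, and 5 at its annotated starts, which RefSeq also places inside the gene. Interactions at ends alone thus miss those of a gene whose starts lie within it. Il1rap, the co-receptor chain, had 6. Over their spans, Il16 had 30 in place of 4, Il31ra 21 in place of 11 and Ccl28 9 in place of 0. At annotated starts Il16 had 10, and Il31ra and Ccl28 had 0.

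Among receptor chains with few or no interactions were Il17ra, Il12rb2, Il23r, Il5ra, Il22ra1 and Il11ra2, which had none at an end or over their span. Il2ra, Il7r, Il10rb, Il11ra1, Il12rb1, Il17rb, Il17rc and Il17re had 1 each. For Il17rc and Il17re it was the same interaction, in a bin they share. Those of Il10rb, Il11ra1 and Il17rb were in bins shared with Ifnar2, Galt and Actr8.

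Ligand and receptor genes were set side by side in 38 textbook pairs, which share genes. Both had an interaction in 23 pairs, only the receptor in 8, only the ligand in 4, and neither in 3. Of all 75 ligands 64.0% and of all 52 receptors 84.6% had one, against 65.7% of coding genes. The ligands Ccl19, Ccl21a, Ccl21b, Ccl21d and Ccl27b and the receptor Il11ra2 lie in the stretch of chromosome 4 without an anchor. Ccl21c lies below the first anchor of that chromosome. Ccl19 and Ccl21a, each paired with Ccr7, are among the pairs with only the receptor. Whether the pairs exceed what the shares of ligands and receptors give was not tested. Pairs were counted at gene ends, where Il1r1 and Il33 had 0, whereas at annotated starts they had 5 and 4. Il6 and Il6ra had 13 and 12, and Il18 and Il18r1 had 6 and 7. Bins of Il6ra, Il18 and Il18r1 were shared with other coding genes. The counts were far apart for Cxcl12 and Cxcr4, with 2 and 36, for Cxcl1 and Cxcr2, with 21 and 2, for Ccl1 and Ccr8, with 20 and 2, and for Il4 and Il4ra, with 2 and 17. Counted as merged contacts, these pairs had 1 and 6, 4 and 2, 1 and 1, and 1 and 2. The contrast was thus gone for Ccl1 and Ccr8, and small for Cxcl1 and Cxcr2 and for Il4 and Il4ra. The pairs with neither were Il17a with Il17ra, Il22 with Il22ra1 and Il23a with Il23r.

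**Figure D5:**
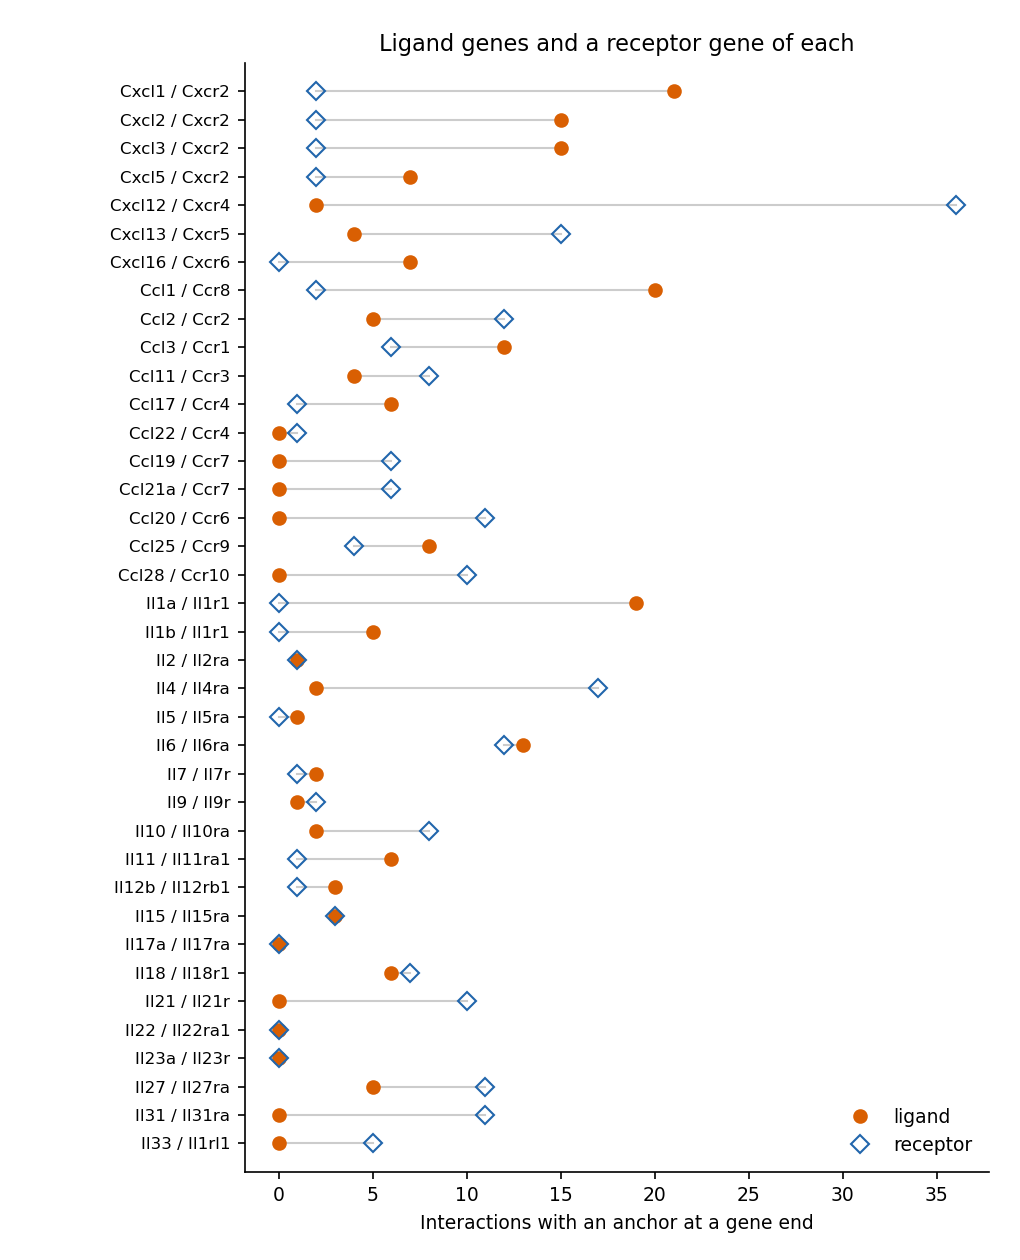
Interactions with an anchor at a gene end (x axis) for 38 pairs, 1 to a row, of a ligand gene (orange circles) and a receptor gene (blue diamonds). Long lines join Cxcl12 (2) to Cxcr4 (36) and Cxcl1 (21) to Cxcr2 (2), whereas Il6 (13) and Il6ra (12) lie next to each other.

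The contacts of the family were shorter than those of coding genes in general. The median distance of the 603 interactions was 120 kb (interquartile range 70 to 190 kb), against 170 kb (100 to 300 kb) for the 60738 interactions at any coding gene end, and 4.31% against 9.24% exceeded 500 kb. The median was 120 kb both for the 50 genes in clusters and for the 81 outside them. Both anchors were at coding gene ends in 39.3% of the interactions of the family, against 29.5% of those at any coding gene end. These shares are not like for like and show no excess. An interaction with gene ends at both anchors can enter the family by either anchor, whereas among all coding genes it enters once. In 42 interactions both anchors were at ends of the family, 39 of them joining different members. Of the 46 genes with at least 5 partner bins, 20 (43.5%) had all of them on 1 side, against 33.1% of the 6446 coding genes with as many. Adjacent interactions are not independent, and none of these differences was tested.

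Genes that carry these signals inside the cell, and related cytokine genes, were counted in the same way, many of them in bins shared with other coding genes. Of 21 JAK-STAT genes 20 had an interaction (median 9), with 32 at Socs2, a feedback inhibitor, 27 at Pias1 and 20 at Jak2, the last 2 in shared bins. Of 20 NF-kB and MyD88 genes 19 did (median 5.5), with 47 at Nfkbiz, in bins shared with Nxpe3, 36 at Tnfaip3, which ends NF-kB signalling, and 25 at Traf6. Other cytokines and receptors had interactions at 28 of 30 (median 6), with 27 at Lif and 26 at Crlf2. Lif signals through Il6st and Lifr, and Lifr had 1. Of 10 other chemokine genes 8 did (median 3.5), with 23 at Ackr3, the atypical second receptor of Cxcl12, 9 at Cmklr1 and 8 each at Cx3cl1 and Xcr1. Counted as merged contacts, Socs2 had 8, Pias1 2, Jak2 6, Nfkbiz 3, Tnfaip3 6 and Traf6 3. Lif had 7, Crlf2 12 and Ackr3 9 merged contacts. The share among all coding genes was 65.7% and their median was 2 interactions.

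Markers of the cell types the tissue could hold were counted likewise. Over all coding genes the share with an interaction was 65.7% and the median was 2. Many of the markers share an end bin with another coding gene, Itgam, Spi1 and Trem2 among them. Microglia and macrophage markers had an interaction at 10 of 10 (median 3), T cell markers at 6 of 7 (median 2, with 41 at Cd2), B cell markers at 4 of 4 (median 4), neutrophil markers at 3 of 5 (median 1) and endothelial markers at 4 of 5 (median 7). Astrocyte and radial glia markers had one at 7 of 7, with a median of 21 and a range of 7 to 27. As merged contacts, Slc1a3 had 11, Sox2 10, Sox9 6 and Vim 2, and the T cell marker Cd2 had 4. Among T cell markers, Cd8a had none and Cd4 had 1, and among neutrophil markers Ly6g and Retnlg had none. The part of these cell types in the contacts of chemokine and interleukin genes was not tested.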

How the data were processed

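H3K27ac HiChIP, per the labels' extract protocol (the titles read ChIP-seq), covers 2 libraries of YAP-M tumor and 2 of wild-type mouse neural progenitor cells. The authors deposited 1 list of interactions, named as significant, that holds per the file header only the chromosome, start and end of 2 anchors. Per the submitters' processing notes, BWA and mm10 were used. For the interaction caller, its threshold and any pooling, the answer is not given in the sources used here. No library is named in the list. Reading it as YAP-M tumor rests on its name.

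Gene positions came from a RefSeq table of GRCm38.p6 without strand; strand and annotated starts came from RefSeq promoter windows, which include starts inside genes. Distinct interactions with an anchor bin overlapping 2.5 kb around either gene end were counted with Python 3.11.15, pandas 2.3.3 and numpy 2.4.6; exact (Clopper-Pearson) 95% intervals came from scipy 1.17.1. Merged contacts are groups of interactions whose anchors lie within 1 bin of each other on both sides. Clusters have at least 3 members with gaps of at most 500 kb. Counting and merging were tested on simulated lists: all 200 genes and all 40 blocks were recovered.

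Named genes were the 5 members with the most interactions in each class, 20 well-known genes, members with 20 or more interactions, cluster members, members without interactions and the top 3 of each pathway list. Others were named after their values were seen, as were the ligand and receptor pairs and the genes compared for shared partners. The members and lists were chosen with earlier results of these data known. Alternatives were gene-end windows of 0 and 5 kb, anchor midpoints, merged contacts, whole gene spans, genes alone in their bins, annotated starts, all annotated genes for shared bins and, added after the data were seen, leaving out the 2 enzymes. Some genes that the rule takes in are not reported here by name.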

Additional observations from a re-analysis of the deposited data

How the results depend on the processing

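No paired analysis was possible because nothing in the list is given by library. No replicate could be left out either, and without a score no stricter threshold was run. The share of genes with an interaction stayed between 66.1% and 76.3% under the windows of 0 and 5 kb, merging, whole spans, genes alone in their bins and without the 2 enzymes, against 50.5% to 68.0% of coding genes. The exact interval lay above the share of coding genes for genes alone in their bins (52.6 to 77.9%). It did so narrowly for 5 kb (68.1 to 83.3%, against 68.0%) and by midpoint (40.8 to 58.5%, against 40.5%). In the main count and under every other setting the interval covered the share of coding genes. Genes that share bins are not independent, so these intervals are no test. With the anchor midpoint the share of genes with an interaction was 49.6%, against 40.5%, and at annotated starts 62.6% of 99 genes, against 60.1%. With the midpoint the median was 0, as for all coding genes, the share was 63.6% for CC receptors, 47.2% for interleukin receptors and 0% for the antagonists. Among genes alone in their bins it was 30.0% for CC chemokines and 100% for the antagonists (1 gene). The share of genes with a shared bin was 35.9% with 0 kb, 66.4% with 5 kb, 15.3% by midpoint, 13.1% at starts and 68.7% with all annotated genes, against 55.0%. Of 22 genes followed singly, counts moved by over 1.5 times for 13 under merging, 12 by midpoint, 5 with 0 kb, 4 over whole spans and 2 with 5 kb, and for 8 of 15 at annotated starts. Merging left 6 at Cxcr4, 12 at Il20rb, 6 at Il6st, 4 at Cxcl1, 4 at Il6, 2 at Il4ra, 2 at Ccr2 and 1 at Ccl1. By midpoint Cxcr4, Il20rb, Il4ra and Ccr2 had 0 and Cxcl1 had 11. With 0 kb Cxcl1 had 11, Il4ra had 8 and Ccr2 had 4. At annotated starts Il20rb had 0, Il6st 13, Il4ra 8 and Ccr2 5. Since depth is not known, a count of 0 says that no interaction was called, not that contact is absent. The causes of these shifts were not tested.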
